A study of Mus musculus with 20 samples.

Results

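The genes described are 9 protein kinases of the STE20 family (Pak1, Pak2, Pak4, Pak6, Stk3, Stk4, Stk10, Stk24 and Stk25), chosen by name. They make up 9 of the 43346 genes counted in the deposited table. The counts came from 20 spontaneous breast tumors, 1 from each of 20 female F1 mice bred from BALB/c-neuT males, which carry a rat HER2/neu transgene, and wild-type FVB/J females. All 20 mice shared this cross and the oncogene, and no treatment is listed for any of them. No normal mammary tissue and no transgene-negative tumor was among the samples analysed here. The sample titles divide the tumors into 9 Lo and 11 Hi, and neither the labels nor the paper's methods say what these words stand for. Each library was made from a small piece of bulk frozen tumor, so fewer cells of a type and less RNA per cell cannot be told apart in any value that follows.

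STE20 kinases are serine/threonine kinases that pass signals from small GTPases, adhesion and stress to the cytoskeleton, to MAP kinases and to growth control. The p21-activated kinases form one branch. Pak1 and Pak2 belong to group I, which is held inactive by an autoinhibitory domain until active Rac or Cdc42 binds, and Pak4 and Pak6 belong to group II, which also binds Cdc42. Stk4 (MST1) and Stk3 (MST2) are the upstream kinases of the Hippo pathway, which restrains the coactivators YAP and TAZ. Stk24 (MST3) and Stk25 (YSK1) are germinal center kinases of group III that bind Pdcd10 (CCM3) within STRIPAK complexes, and Stk10 (LOK) phosphorylates ezrin, radixin and moesin, which link the cortex to the membrane. PAK signaling is known for its part in motility and survival downstream of HER2 in breast tumors.

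In the coordinates of the table (mm10), Pak1 lies at chr7:97842935-97912381 and Pak4 at chr7:28399549-28598185. Pak6 lies at chr2:118663303-118698020 and Stk4 at chr2:164070322-164155524, on the same chromosome. Pak2 lies at chr16:32016290-32079342, Stk3 at chr15:34875496-35155806, Stk10 at chr11:32533305-32624587, Stk24 at chr14:121286343-121379334 and Stk25 at chr1:93619751-93658659. The Pak4 entry is much wider than the gene in GENCODE M21, which starts at 28558819. Within the wider span lie 11 other annotated genes, and the entry is given 7845 bases of length against 3535 exon bases in GENCODE. Reads from other loci may therefore be included in the Pak4 counts. Of the exon bases of Stk25, 23.6% overlap exons of genes on the opposite strand (Farp2 and Gm28536), and the strand setting of the counting was not given in the sources used here.

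Promoter sequences from RefSeq (build GRCm38.p6, 250 bases before to 50 bases after a start site) were found for 6 of the 9 genes, namely Pak1, Pak4, Pak6, Stk4, Stk10 and Stk25. Those of 3 genes are shown, Pak1 because it had the highest level per length and a pair of start sites, Pak4 because of its entry's width, and Stk4 because it was the only one of the 9 called with the dosage of its own chromosome. Capitals mark GC boxes (GGGCGG or its complement CCGCCC) and CCAAT boxes (CCAAT or its complement ATTGG), searched on both strands, and each line reads 5′ to 3′ along the gene.
Pak1, upstream start, chr7:97788291-97788590, plus strand: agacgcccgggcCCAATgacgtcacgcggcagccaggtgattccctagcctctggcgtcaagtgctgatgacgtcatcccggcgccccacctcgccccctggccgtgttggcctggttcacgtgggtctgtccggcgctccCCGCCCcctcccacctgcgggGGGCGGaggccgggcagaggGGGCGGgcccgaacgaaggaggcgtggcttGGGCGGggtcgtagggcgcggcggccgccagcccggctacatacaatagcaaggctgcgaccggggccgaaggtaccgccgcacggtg
Pak1, downstream start, chr7:97842689-97842988, plus strand: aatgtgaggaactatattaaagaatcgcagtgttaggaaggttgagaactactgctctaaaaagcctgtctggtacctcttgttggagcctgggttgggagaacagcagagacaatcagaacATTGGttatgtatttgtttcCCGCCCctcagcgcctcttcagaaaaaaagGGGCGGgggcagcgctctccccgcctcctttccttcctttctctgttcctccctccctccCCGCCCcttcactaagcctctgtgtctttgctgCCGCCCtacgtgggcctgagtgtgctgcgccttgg
Pak4, chr7:28598135-28598434, minus strand: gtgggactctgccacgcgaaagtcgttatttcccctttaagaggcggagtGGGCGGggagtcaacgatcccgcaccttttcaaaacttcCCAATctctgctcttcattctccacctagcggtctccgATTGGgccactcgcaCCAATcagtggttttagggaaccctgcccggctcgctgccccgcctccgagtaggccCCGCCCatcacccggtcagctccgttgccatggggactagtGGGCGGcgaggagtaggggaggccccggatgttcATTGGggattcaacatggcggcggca
Stk4, chr2:164073888-164074187, plus strand: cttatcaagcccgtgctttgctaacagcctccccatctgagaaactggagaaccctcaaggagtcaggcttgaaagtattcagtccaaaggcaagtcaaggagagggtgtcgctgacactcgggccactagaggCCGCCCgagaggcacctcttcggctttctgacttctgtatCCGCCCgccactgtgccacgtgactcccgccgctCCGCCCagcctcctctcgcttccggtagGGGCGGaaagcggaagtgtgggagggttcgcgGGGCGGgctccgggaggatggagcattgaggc
The Pak1 entry of the count table begins inside the downstream window, so exons that belong only to the upstream start lie outside its bounds. The upstream Pak1 window held 35 CG dinucleotides and the downstream window 10, beside a median of 7 over 32817 distinct promoter windows. Both held 4 GC boxes. The Pak4 window held 3 GC boxes and 4 CCAAT boxes, and the Stk4 window held 5 GC boxes and 0 CCAAT boxes. The start site of the Stk4 window lies 3816 bases downstream of the start of the counted Stk4 entry. A GC box occurred in 35.6% of all promoter windows of this length and a CCAAT box in 37.4%. None of the windows of the 6 genes held a TATAAA box, which 13.6% of all windows held on either strand.

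Total gene counts lay between 38765682 and 65465755 (median 49881778.5), and counts of the 9 kinases were scaled to CPM, a library of common size after TMM normalization. The entries over the ribosomal RNA locus held 6.29% to 27.7% of a tumor's counts, on average 18.4% in Lo and 13.7% in Hi tumors. Defining markers matched the tissue label. The summed level of 8 luminal epithelial genes ranged from 2745 to 4439 CPM over the tumors, and that of 5 basal genes from 8.18 to 64.1 CPM. Stroma and immune cells were present too. The sum of 7 fibroblast genes ranged from 638 to 2392 CPM and that of 6 leukocyte genes from 288 to 677 CPM. That of 7 macrophage genes ranged from 255 to 431 CPM and that of 6 T cell genes from 1.23 to 5.24 CPM.

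To ask which kinases these tumors express most, levels were compared per kilobase of the listed length (RPKM). All 9 kinases were detected in every tumor. Pak1 had the highest level, 40.2 ± 4.59 RPKM (SD, n = 20), with a range from 35.3 to 54.3. Stk25 followed with 25.7 ± 2.51 RPKM, and Pak2 with 17.2 ± 1.33 RPKM. Stk24 had 16.7 ± 1.39 RPKM and Pak4 15.0 ± 0.936 RPKM. The Hippo kinases lay lower, Stk3 at 8.88 ± 1.25 RPKM and Stk4 at 8.80 ± 0.913 RPKM. Pak6 had 4.68 ± 0.780 RPKM and Stk10 the lowest level, 2.34 ± 0.294 RPKM.

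Neighbors in this order were compared within tumors, with a two-sided sign-flip permutation test (100000 draws) adjusted over the 8 neighboring pairs. Of these pairs, 7 differed and 1 did not. Pak1 exceeded Stk25 in 20 of 20 tumors, with a mean log2 ratio of 0.65 ± 0.210 (SD) and an adjusted permutation p of 2e-05, which rests on the smallest p that the draws can give. Pak2 exceeded Stk24 in 15 of 20 tumors by a mean log2 ratio of 0.05 ± 0.0854 (adjusted permutation p = 0.0322). Stk3 and Stk4 did not differ beyond their spread, each being the higher in 10 of 20 tumors, with a mean log2 ratio of 0.01 ± 0.204 (adjusted permutation p = 0.883).

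The order depended on the lengths used. In the alternative below only the length was replaced, and the counts stayed those gathered over the deposited entries. Listed length and GENCODE exon bases were 7845 and 3535 for Pak4, 2676 and 5238 for Stk24, and 3237 and 6018 for Stk3. Counts and length then come from different annotations, so these ratios do not show which order holds. With the exon bases of GENCODE M21, Pak4 rose to 33.3 ± 2.08 RPKM, above Stk25 and below Pak1 (36.5 ± 4.16 RPKM), while Stk24 fell to 8.54 ± 0.709 RPKM and Stk3 to 4.78 ± 0.672 RPKM. On that scale the log2 ratio of Stk24 over Pak4 was -1.97 in place of 0.15, that of Stk3 over Stk4 was -0.89, and that of Pak2 over Stk24 was 1.01 in place of 0.05. Pak1 stayed the highest and Stk10 the lowest with either set of lengths.

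**Figure D1:**
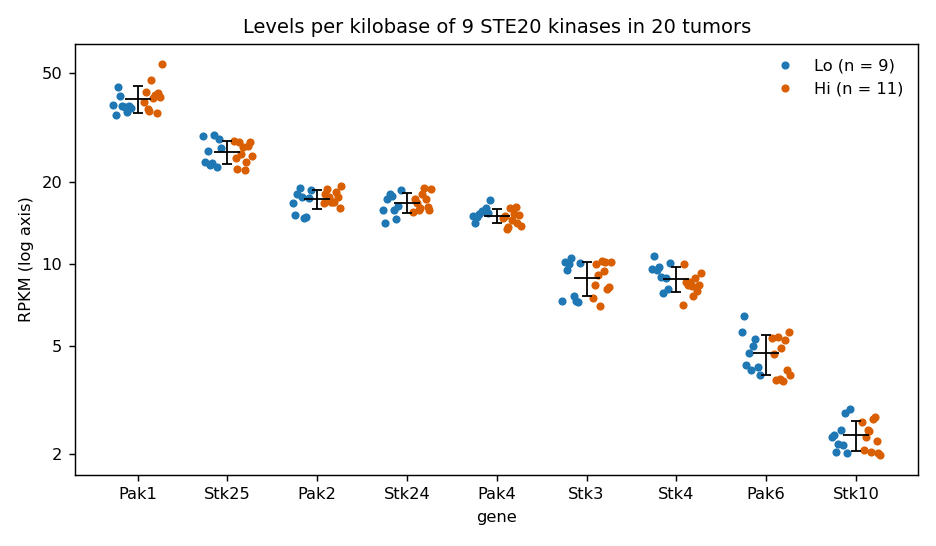
Level of each of the 9 kinases in RPKM (log axis, from the listed lengths) in the 9 Lo and 11 Hi tumors, 1 point per tumor, with the mean and SD over 20 tumors in black. Pak1 tumors sit between 35.3 and 54.3 RPKM, and Stk10 tumors between 1.98 and 2.91 RPKM.

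The other STE20 kinases give this order a frame. Stk39 (SPAK), which regulates cation-chloride cotransporters, had 58.1 RPKM as the mean of the 20 tumors, above Pak1. Map4k4 had 38.8 RPKM, with a range from 28.2 to 70.7. Stk26 (MST4), the third kinase of Stk24's group, had 26.8 RPKM, close in value to Stk25. The remaining PAKs were low or nearly absent, Pak3 at 0.118 RPKM and Pak5 at 0.000953 RPKM, the latter with no count in at least 1 tumor. These genes were named after their values were seen.

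The partners of the kinases were present as well. Of the activators and adaptors of PAKs, Rac1 had 86.8 RPKM, Rhoq 57.0 and Cdc42 57.0 RPKM, whereas Rac2, the hematopoietic Rac, had 2.52 RPKM. Pdcd10 ranged from 11.04 to 17.05 RPKM, overlapping the range of Stk24 (14.05 to 18.9 RPKM). Among the substrates of Stk10, Ezr (ezrin) had 87.8 RPKM, Msn (moesin) 27.6 and Rdx (radixin) 21.2 RPKM. Yap1 had 15.7 RPKM and Wwtr1, which encodes TAZ, 20.9 RPKM. These too were picked after their values were seen.

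The 9 kinases varied little between tumors. Pak4 varied least. Its lowest tumor had 105 CPM, its median was 118 CPM and its highest had 134 CPM, a ratio of 1.28 between the extremes. The SD of its log2 CPM was 0.0898, which placed it at percentile 0.927 among 18883 genes tested. Pak2 (SD 0.113, from 100.3 to 131 CPM) and Stk24 (SD 0.120, from 37.6 to 50.7 CPM) also lay at or below percentile 6.38. Pak6 varied most, from 19.3 CPM to 33.3 CPM (SD 0.237, percentile 46.9), and Stk3 ranged from 22.7 to 34.0 CPM (SD 0.208). With total counts as library size, Pak6 still had the largest SD (0.270) and Pak4 the smallest (0.136). On that scale Stk3 (0.164) lay below Stk10 (0.211), Pak1 (0.201) and Stk25 (0.198). The median SD of the 9 was 0.150 beside 0.251 over all genes tested, and 9 of 9 lay below the latter. Since counting error adds to the spread of weakly expressed genes, this is a description that was not matched for level.

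Lo and Hi tumors are the only groups the titles give, and they were compared by the quasi-likelihood test of edgeR, adjusted by Benjamini-Hochberg over 18883 genes. Of the 9 kinases, 0 were called at an adjusted p under 0.05, where 0% of all genes were called. At an unadjusted p under 0.05, 0 of the 9 and 1045 genes (5.53%) passed, and DESeq2 called 1 gene, which was no member. In some alternative fits 1 of the 9 passed the unadjusted threshold, for example without Lo 7, beside 1181 of 19017 genes. The groups overlapped for all 9.

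Stk4 came closest. Its lowest, median and highest levels were 45.9, 55.7 and 62.4 CPM in Lo tumors and 41.4, 48.9 and 58.5 CPM in Hi tumors. The Hi tumors lay lower by median, yet the highest of them exceeded the Lo median. Its log2 fold change (Hi over Lo) was -0.13 (standard error 0.0636, 95% interval -0.27 to 0.00, edgeR unadjusted p = 0.0504, adjusted p = 0.895).

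Pak1 had 108, 116 and 136 CPM in Lo and 110, 126 and 167 CPM in Hi tumors as the lowest, median and highest values. Only the upper part of the Hi range lay outside that of Lo, and the log2 fold change was 0.12 (standard error 0.0677, 95% interval -0.02 to 0.26). Pak4 had 110.4, 120.2 and 134 CPM in Lo and 105, 115 and 126 CPM in Hi tumors, with a log2 fold change of -0.07 (95% interval -0.17 to 0.03). The other 6 kinases had log2 fold changes between -0.08 (Pak6, -0.01 without Lo 2) and 0.05 (Pak2, 0.03 without Lo 7). Intervals were widest for Pak6, from -0.29 to 0.14.

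The pathway genes gave the same count. Of 18 other STE20 kinases tested, 12 PAK activators and partners, 10 PAK substrates, 16 Hippo genes, 7 YAP and TAZ targets, 15 partners of Stk24 and Stk25 and 3 substrates of Stk10, 0 were called between Lo and Hi.

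**Figure D2:**
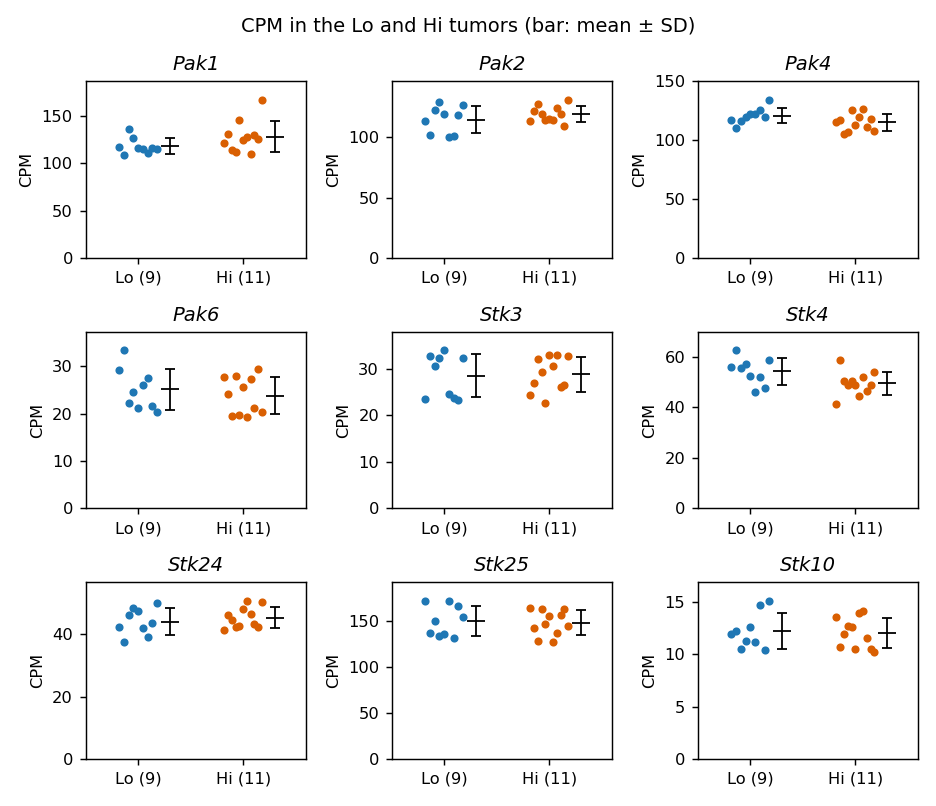
CPM of each kinase (axis from 0) in the 9 Lo and the 11 Hi tumors, 1 point per tumor, with the mean and SD of each group beside the points. The groups overlap in all 9 panels, and the Hi mean of Stk4 is 49.4 CPM beside 54.1 CPM in Lo.

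Tumors of this model gain and lose chromosomes, and it was asked whether each kinase followed its own chromosome. The dosage of a chromosome in a tumor was taken as the median log2 shift of its expressed genes (the 9 kinases left out) from their medians over tumors, relative to all autosomes. It is an expression measure and not a DNA copy number. A slope of 1 means that a gene shifted as much as its chromosome did. Of the 9 kinases, 1 was called (edgeR, adjusted over 18228 autosomal genes), where 11.8% of all genes were called. A call of 1 in 9 kinases was thus no more than the share over all genes. The median slope was 1.27 over the 9 and 1.03 over all genes.

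The kinase called was Stk4, with a slope of 1.04 (standard error 0.336, 95% interval 0.34 to 1.75, adjusted p = 0.0460). Of the 1554 genes tested on Chr2, 375 (24.1%) were called. Chr2 dosage was highest in the tumors Lo 2 (0.225), Lo 8 (0.200), Lo 11 (0.166) and Lo 1 (0.118). In these tumors Stk4 had 62.4, 52.0, 58.7 and 55.9 CPM, beside a median of 51.1 CPM over all 20. All 4 lay above the median, Lo 2 and Lo 11 by more than the SD of 5.35 CPM and Lo 1 and Lo 8 by less. Pearson's r was 0.604 over 20 tumors, 0.642 within Lo and 0.319 within Hi, where Chr2 dosage did not exceed 0.0369. The call was lost with Lo or Hi as a further term (slope 0.89, adjusted p = 0.168) and without the 2 tumors farthest from the median dosage (slope 1.38, adjusted p = 0.156). Its adjusted p ranged from 0.0402 to 0.168 over the alternatives, and when each tumor was left out in turn the slope stayed between 0.90 (without Lo 2) and 1.33 (without Lo 8).

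Pak6, also on Chr2, had a slope of 1.27 (standard error 0.540, adjusted p = 0.132) and 33.3 CPM in Lo 2, the highest of all tumors, but 20.4 CPM in Lo 11. Its slope was 0.79 without Lo 2. Stk3 on Chr15 had a slope of 1.47 (standard error 0.514, unadjusted p = 0.00891, adjusted p = 0.0642), with r of 0.561 within Lo and 0.594 within Hi. The tumor with the highest Chr15 dosage, Hi 8 (0.206), had 32.9 CPM of Stk3. Of the 3 tumors with the lowest, Hi 2 (-0.0895) had 26.9 CPM, Hi 5 (-0.0887) had 22.7 CPM, the lowest of all, and Lo 3 (-0.0836) had 30.6 CPM, above the median.

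Stk25 on Chr1 did not pass the test, with a slope of 0.52 and a 95% interval from -0.20 to 1.24. Chr1 dosage was lowest in Lo 8 (-0.300), Hi 7 (-0.227) and Hi 5 (-0.135). Stk25 had 131.3 CPM in Lo 8, 127.9 CPM in Hi 7, the lowest of the 20 tumors, and 147.2 CPM in Hi 5, near the median of 148.9 CPM. Hi 3 had 128.9 CPM at a Chr1 dosage of 0.0342. The slopes of the other 5 kinases were between -0.01 (Pak1) and 1.88 (Pak2), and the dosage SD of their chromosomes was 0.0209 to 0.0305, so their intervals were wide (for Pak2, -0.87 to 4.63).

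**Figure D3:**
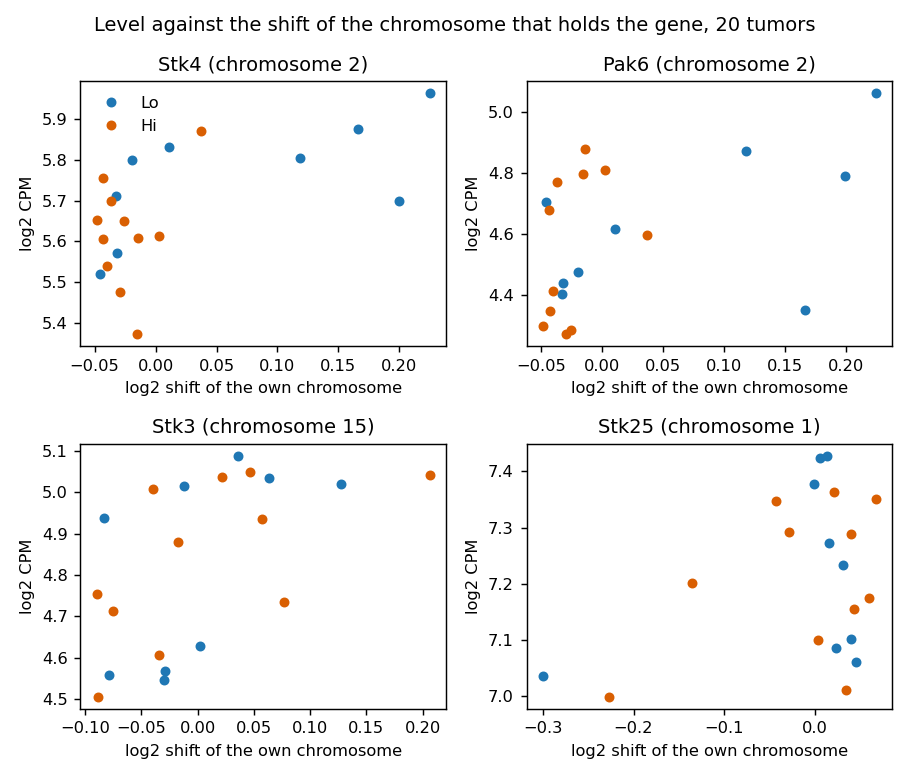
Level (log2 CPM) of Stk4, Pak6, Stk3 and Stk25 against the log2 shift of the chromosome that holds each gene, 1 point per tumor, Lo and Hi by color. The Chr2 panels hold 4 Lo tumors with shifts of 0.118 to 0.225, and the Chr1 panel holds 3 tumors with shifts from -0.300 to -0.135.

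Partners of the kinases were also called with their own chromosomes. Of 11 PAK activators and partners tested, 4 rose with dosage (Git2, Git1, Arhgef7 and Cdc42) and 1 fell (Rhoq), where 11.1% of all genes rose and 0.658% fell. Git1 and Git2 are scaffolds that, with the exchange factor Arhgef7 (beta-PIX), bring PAKs to adhesions. Cdc42, on Chr4, had a slope of 1.35 (standard error 0.243, edgeR adjusted p = 0.00111), and Chr4 dosage ranged from -0.207 to 0.374. Git2, on Chr5, had a slope of 6.37 (standard error 1.94), but Chr5 dosage ranged only from -0.0356 to 0.0244. Git1 (slope 5.67, Chr11) and Arhgef7 (4.18, Chr8) also lay far above 1, on chromosomes with a dosage SD of 0.0226 and 0.0258. Rhoq, on Chr17, had a slope of -4.20 (standard error 1.08).

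Of 15 partners of Stk24 and Stk25, 4 rose (Ccm2, Cttnbp2nl, Strn3 and Cab39) and 1 fell (Strn). Ccm2, on Chr11, had a slope of 6.15, where dosage ranged only from -0.0739 to 0.0293. Slopes were 3.04 for Cttnbp2nl (Chr3), 2.15 for Strn3 (Chr12) and -2.14 for Strn (Chr17). The dosage SD was 0.0421 on Chr3, 0.0457 on Chr12 and 0.0321 on Chr17. Cab39 (MO25), which activates kinases of this group, had a slope of 1.56 on Chr1 (standard error 0.329, edgeR adjusted p = 0.00375). Of 16 Hippo genes, 3 rose, Tead2 (slope 4.67, Chr7), Tead3 (4.09, Chr17) and Wwtr1 (2.53, Chr3). These slopes too lay above 1, on chromosomes with a dosage SD of 0.0305, 0.0321 and 0.0421. Of 15 other STE20 kinases 1 rose, Map4k5, with a slope of 1.498. Of 9 PAK substrates, 7 YAP and TAZ targets and 2 substrates of Stk10, 0 were called. Arhgef7, Cdc42, Cab39 and Strn were named after their values were seen.

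The kinases were then set against 12 measures of each tumor, which were scores of 10 marker lists (6 types of stromal or immune cell, luminal cells, basal cells, proliferation and nuclear-retained RNA), the level of mouse Erbb2 and the percentage of counts on the ribosomal RNA locus. Of 108 relations between a kinase and a measure, 1 was called by edgeR (adjusted over 18883 genes per measure). Stk24 was lower where the score of the nuclear-retained RNAs Malat1, Neat1, Kcnq1ot1 and Airn was higher, by -0.08 on the log2 scale per SD of the score (standard error 0.0234, adjusted p = 0.0184). With this score 17.5% of all genes were called, 11.2% higher and 6.38% lower, so a call of 1 in 9 kinases was no more than the share over all genes.

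Stk24 had 37.6, 43.5 and 50.002 CPM as the lowest, median and highest levels in Lo tumors and 41.3, 44.6 and 50.7 CPM in Hi tumors. The tumors Lo 4 and Hi 7, with the lowest scores (-1.68 and -1.56), had 48.4 and 50.7 CPM, and Hi 4, with the highest score (1.57), had 42.3 CPM. Pearson's r was -0.682 over all tumors, -0.676 within Lo and -0.722 within Hi. When each tumor was left out in turn the adjusted p was at most 0.0490 (without Hi 7), and without the 2 tumors farthest from the median score the change was again -0.08 per SD with an adjusted p of 0.105. The summed level of the 4 RNAs ranged from 1839 to 4832 CPM in Lo and from 1714 to 5838 CPM in Hi tumors.

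Other relations of the kinases did not pass the threshold. Stk24 had 0.08 per SD of the luminal score (standard error 0.0244, edgeR adjusted p = 0.0742, with 2.49% of all genes called), and Stk3 had -0.10 per SD of the nuclear-retained RNA score (adjusted p = 0.0749). With leukocytes 0 of the 9 were called beside 3.06% of all genes, with macrophages 0 beside 1.91%, with fibroblasts 0 beside 1.81%, with proliferation 0 beside 1.07% and with mouse Erbb2 0 beside 0.101%. With the remaining measures 0 of the 9 were called either, where the share of all genes was 1.17% for endothelial cells, 0.418% for T cells, 0.323% for basal cells, 0.132% for the ribosomal RNA locus and 0.09% for adipocytes.

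Partners were called with several measures. With the leukocyte score, where 3.06% of all genes were called, calls were made for 2 of 12 PAK activators and partners. They were also made for 2 of 7 YAP and TAZ targets and 1 of 18 other STE20 kinases. Rac2 was higher by 0.20 (standard error 0.0373) and Cdc42 by 0.17 per SD. Cdc42 was also called with Chr4 dosage, and these relations were not separated. The targets Ankrd1 (mean 2.34 CPM) and Axl were higher by 0.76 and 0.19, while the kinase Mink1 was lower (-0.14). Rac2 and Axl were also higher with the macrophage score, by 0.20 and 0.17 per SD, as 1 of 12 PAK activators and partners and 1 of 7 targets. Ccn2 (CTGF), a YAP target, was higher by 0.20 with the endothelial score, and the kinase Map4k2 was lower by -0.20 with the luminal score. These were 1 of 7 YAP and TAZ targets and 1 of 18 other STE20 kinases. With the nuclear-retained RNA score, where 17.5% of all genes were called, the calls were 3 of 18 other STE20 kinases, 3 of 12 PAK activators and partners, 2 of 10 PAK substrates, 0 of 16 Hippo genes, 2 of 7 YAP and TAZ targets, 2 of 15 partners of Stk24 and Stk25 and 0 of 3 substrates of Stk10. Pdcd10 (-0.14), Cab39l (-0.10), Rac1 (-0.11), Rac2 (-0.15), the pro-apoptotic gene Bad (-0.10), Cfl1 (cofilin, -0.09), Ccn1 (-0.15) and Ccn2 (-0.16) were lower per SD. Map4k2 (0.24), Mink1 (0.16), Taok2 (0.15) and Git2 (0.10) were higher.

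To see which kinases varied together, log2 CPM was correlated over the 20 tumors for the 36 pairs, with two-sided permutation tests (100000 draws) adjusted over the 36. Of these, 2 pairs were called. Pak2 and Stk24 rose and fell together (Pearson's r = 0.735, Spearman's coefficient = 0.732, permutation p = 0.00024 and 0.00036, adjusted p = 0.00864 and 0.0130). The correlation was 0.905 within Lo and 0.399 within Hi, a difference that was not tested. When the 2 tumors with Pak2 levels farthest from its median were left out it was 0.700 (adjusted p = 0.0421), and after removal of the nuclear-retained RNA score from both genes it was 0.697 (adjusted p = 0.0191). Of 11966 other genes, 4.10% had r of at least 0.602 with Stk24, and 0.752% had an absolute r of at least 0.765. With Pak2, 4.53% had r of at least 0.585, and 0.376% had an absolute r of at least 0.765. The share of genes that reach the pair's own r of 0.735 was not counted. Whether 2 called pairs of 36 exceed the share over all gene pairs was not tested.

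Pak6 ran opposite to Stk24 (Pearson's r = -0.658, Spearman's coefficient = -0.684, permutation p = 0.00202 and 0.00138, adjusted p = 0.0364 and 0.0248). It was -0.847 within Lo and -0.446 within Hi. In the tumor Lo 2, Pak6 was the highest of the 20 (33.3 CPM) and Stk24 the lowest (37.6 CPM). When the 2 tumors with Pak6 levels farthest from its median were left out, r was -0.496 and the call was lost (adjusted p = 0.226). The part of those tumors and that of the smaller number of tumors cannot be told apart. On the log2(RPKM + 1) scale with total counts as library size, r was -0.184 (adjusted p = 0.571).

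The other 34 pairs did not pass, though on the log2(RPKM + 1) scale with total counts Pak1 with Pak2 (r = 0.656, adjusted permutation p = 0.0161), Pak1 with Stk24 (0.681, 0.015) and Pak4 with Stk10 (0.678, 0.015) did. On the main scale the largest of the 34 were Stk3 with Stk24 (r = 0.571) and Pak2 with Pak6 (r = -0.570), both with an adjusted permutation p of 0.0842. The Hippo kinases Stk3 and Stk4 had r = 0.39, and the group III kinases Stk24 and Stk25 had r = -0.26. Pak1 and Pak2 of group I had r = 0.39, and Pak4 and Pak6 of group II had r = -0.10.

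**Figure D4:**
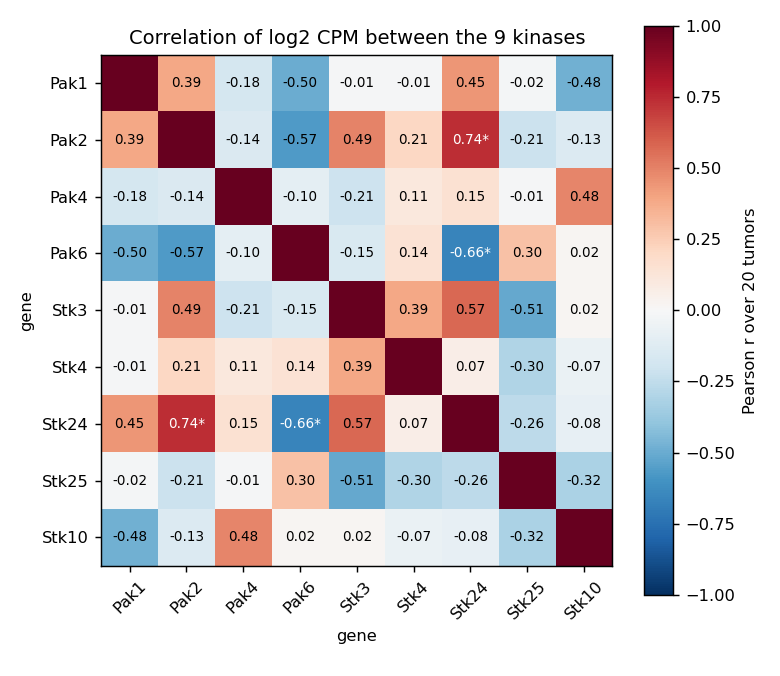
Pearson's r of log2 CPM over 20 tumors for each pair of the 9 kinases, with an asterisk at an adjusted permutation p under 0.05. Asterisks stand at Pak2 with Stk24 (0.74) and at Pak6 with Stk24 (-0.66).

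For each kinase, the 3 genes most like it were found among 11966 other genes with a mean of at least 5 CPM, by Pearson's r over the 20 tumors. These were chosen for their r, so the values are a description. The 3 genes most like Stk4 were Bloc1s6 (r = 0.905), the ubiquitin ligase gene Itch (0.873) and Phf20 (0.856), which lie on Chr2, as Stk4 does. Those most like Stk25 were Kif21b (0.891), B4galt3 (0.865) and Ppox (0.816), which lie on Chr1, as Stk25 does. For Stk3 they were Nudcd1 (0.911) and Ttc33 (0.870), both on Chr15 like Stk3, and the proton pump gene Atp6v1h (0.899) on Chr1. For Pak6 they were Arfgap1 (0.725) and Col20a1 (0.720) on Chr2, as Pak6 is, and Cdk18 (0.718) on Chr1.

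The genes most like the remaining kinases lay on chromosomes other than the kinase's own. Pak4 was most like Axin1 (r = 0.813), a scaffold of the beta-catenin destruction complex, Trim8 (0.804) and Zdhhc7 (0.788). Pak1 was most like the farnesyltransferase subunit gene Fnta (0.814), Flrt3 (0.811) and Lrrc49 (0.797), and Pak2 like Pja2 (0.892), Paip1 (0.842) and Rnf115 (0.834). For Stk10 they were the phosphatase gene Ptpre (0.880), Ehd3 (0.864) and Fam212b (0.823).

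Among the 3 genes most like Stk24 was Pdcd10 (r = 0.872, Spearman's coefficient = 0.889), the STRIPAK adaptor that binds Stk24, after Arfip1 (0.885) and Pdlim5 (0.875). All 3 lie on Chr3, whereas Stk24 lies on Chr14. The correlation with Pdcd10 was 0.845 within Lo and 0.910 within Hi. It was 0.933 when the 2 tumors with Stk24 levels farthest from its median were left out. Both genes were lower with the nuclear-retained RNA score, and after its removal r was 0.749. Stk25, which also binds Pdcd10, had r = -0.498 with it.

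**Figure D5:**
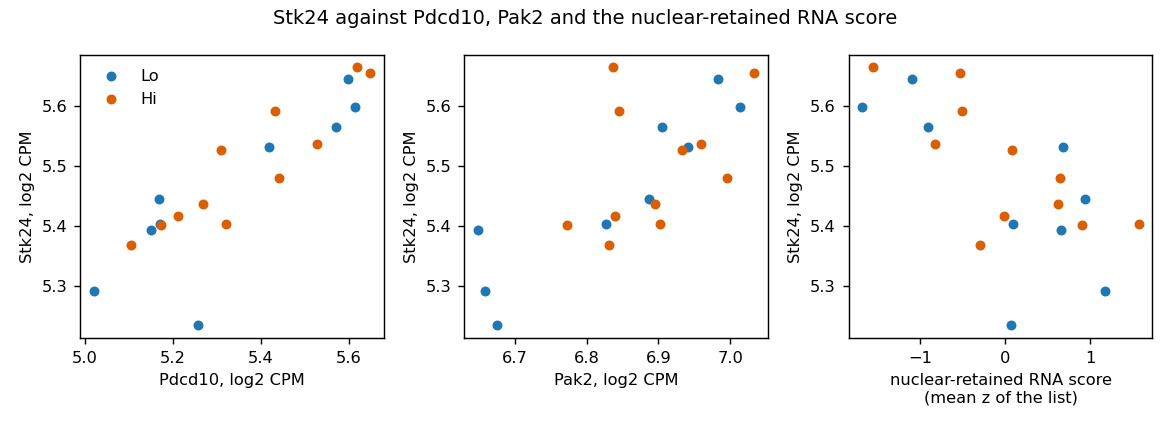
Level of Stk24 (log2 CPM) against Pdcd10 (log2 CPM), Pak2 (log2 CPM) and the nuclear-retained RNA score (mean z-score of 4 RNAs), 1 point per tumor, Lo and Hi by color. Pearson's r is 0.872, 0.735 and -0.682 over the 20 tumors.

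Each kinase was also set against its own listed partners, in 153 relations chosen after the data were seen and given without a test. The largest r was that of Pdcd10 with Stk24, and the next that of the small GTPase gene Rhoq with Pak2 (r = 0.765, 0.923 within Lo and 0.440 within Hi). Of all 11966 other genes, 0.752% had an absolute r of at least this latter value with Stk24 and 0.376% with Pak2. The median r with the listed partners was 0.35 for Stk24 over 15 genes, 0.04 for Pak2 over 22 and -0.07 for Stk25 over 15. For the 4 PAKs it lay between -0.05 (Pak6) and 0.14 (Pak4), for Stk3 and Stk4 at 0.02 and -0.10 over 16 Hippo genes, and for Stk10 at -0.21 over its 3 substrates.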

How the data were processed

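RNA of 20 tumors was sequenced in paired-end reads, which the authors trimmed and aligned to mm10 with TopHat2 (2.0.12) within MapRseq, and the submitters' processing notes list featureCounts (1.4.4). The deposited values are whole-number counts of reads for each gene in each single tumor, without normalization. The deposited table also lists a length per gene. The strand setting and annotation release are not given in the sources used here. The tumors are described as independent, 1 per mouse.

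Of 43346 genes, 18883 passed filterByExpr and were tested with edgeR 4.0.16 (TMM, quasi-likelihood, Benjamini-Hochberg at 0.05) in R 4.3.3, with DESeq2 1.42.0 as an alternative. CPM used TMM library sizes, log2 CPM a prior count of 2 and RPKM the listed length. Permutation tests, correlations and figures used Python 3.11.15, numpy 2.4.6, scipy 1.17.1 and matplotlib 3.10.9. Dosage used genes with a mean of at least 5 CPM. The score of a list averages the z-scores of the genes in it. Intervals give the uncertainty of an estimated fold change or slope, from its standard error, and are not ranges of tumor values. The scripts were tested on simulated data.

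The 9 kinases, 83 pathway genes in 7 lists and 63 marker genes were chosen with earlier results of these data known. Beside the 9, the rule named the 3 genes with the highest r with each and, per pathway list and comparison, up to 3 called genes with the largest change; names beyond it are marked in the text. Read counts per allele were not analysed here.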

Additional observations from a re-analysis of the deposited data

How the results depend on the processing

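Between Lo and Hi, 1 gene was called with DESeq2 and 1 without a filter on low counts, in place of 0, and in both cases 0 of the 9 kinases. Leaving out 1 tumor at a time gave 0 called genes each time. Uncalled log2 fold changes near 0 changed sign when a tumor was left out, for Stk3 (range -0.0187 to 0.04999), Stk10 (-0.0472 to 0.0222) and Stk25 (-0.0423 to 0.00677). The other 6 kept their sign, with ranges from 0.08 to 0.15 for Pak1, 0.03 to 0.08 for Pak2, -0.08 to -0.05 for Pak4, -0.11 to -0.01 for Pak6, -0.16 to -0.10 for Stk4 and 0.02 to 0.06 for Stk24. Of 9 Lo and Hi pairs with the same number in their titles, 3 had r over 0.1 (-0.418 to 0.208). Pairs with different numbers were not compared, so whether shared numbers pair the tumors cannot be told. With the number as a replicate block 0 genes were called, as without it in those 18 tumors. The count of kinases called with their own chromosome fell to 0 with Lo or Hi as a further term and to 0 without the 2 tumors farthest from the median dosage. The uncalled slope of Pak1 became 0.12 with dosage from genes of at least 1 CPM, 0.17 with RLE factors and 0.27 with the Lo or Hi term, but it was -1.77 without the 2 farthest tumors and -1.26 without Hi 3, and that of Stk25 became -0.48 without the 2 farthest tumors. The relation of Stk24 to nuclear-retained RNA left 0 calls without the 2 farthest tumors. Called pairs numbered 4 with log2(RPKM + 1) and total counts, and 1 without the 2 farthest tumors. Counts not divided by length reversed Pak1 over Stk25 (log2 ratio -0.28), Stk24 over Pak4 (-1.40) and Stk3 over Stk4 (-0.85), and GENCODE lengths reversed Stk24 over Pak4 (-1.97) and Stk3 over Stk4 (-0.89). GENCODE lengths were applied to counts over the deposited entries. The fits without 2 tumors rest on fewer samples, and the cause of the other changes was not tested. GENCODE lengths, the fit of the 18 tumors without a block and removal of the nuclear-retained RNA score were added after the data were seen.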
